A study of Mus musculus with 8 samples.

Results

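The 1131 genomic regions described here carried a peak of open chromatin in both lists from wild-type (WT) neurons and in neither list from neurons with a conditional deletion of Brg1 (cKO). The peaks of 4 lists were merged wherever they overlapped by at least 1 bp, and 1131 of the 60611 merged regions on chromosomes 1 to 19 (1.87%) showed this pattern. These regions were chosen by their presence and absence in the lists, and thus by the peak caller's threshold on the q-value. Their folds, q-values and fragment pileups are therefore given as a description, without a test. They are called WT-shared regions below.

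ATAC-seq maps open chromatin with the transposase Tn5, which inserts sequencing adapters where DNA is not wrapped in nucleosomes. BRG1, the product of Smarca4, is an ATPase of the BAF complex (the mammalian SWI/SNF complex), which uses ATP to slide or evict nucleosomes and so keeps promoters and enhancers accessible. Neurons use a form of this complex with the neuronal subunit BAF53b. Depolarisation with KCl opens voltage-gated calcium channels and switches on genes such as Fos within minutes, and calcium-dependent factors act at promoters and enhancers of these genes.

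Cortical neurons of E16.5 mouse embryos were studied in primary culture. The 4 conditions, with 2 libraries each, were cKO neurons after 50 mM KCl for 1 h (cKO KCl), cKO neurons without KCl (cKO basal), WT neurons after the same KCl treatment (WT KCl) and WT neurons without KCl (WT basal). The cKO genotype was BAF53bCre Brg1F/F, so that Cre is driven by a neuronal gene and cells that do not express it would keep Brg1, and the other genotype was labelled Brg1 WT with no alleles named. TTX at 1 µM and APV at 100 µM, which block sodium channels and NMDA receptors, were given on day 5 in vitro and KCl on day 6, and the labels do not state whether basal cultures also received the blockers. Strain, sex and number of embryos are unknown here. Each condition has 1 deposited list of nucleosome-free peaks, and how its 2 libraries entered it is not given in the sources used here. Every value below thus stands for a condition without replicate error, and in such bulk cultures fewer cells with an open site and less opening per cell cannot be told apart.

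The lists differed in length. On chromosomes 1 to 19, cKO KCl held 24947 peaks, cKO basal 19921, WT KCl 19847 and WT basal 33328. The background of fragments per position that the caller expects, a measure of relative depth, was 8.36 in cKO KCl, 9.47 in cKO basal, 8.23 in WT KCl and 9.30 in WT basal. At that background, the lowest pileup called a peak was 20 fragments in cKO KCl, 22 in cKO basal, 20 in WT KCl and 21 in WT basal. Gene ends of 5, 5, 5 and 6 of 7 neuronal markers carried a peak in cKO KCl, cKO basal, WT KCl and WT basal. In the same order, 2, 2, 1 and 1 of 6 excitatory cortical markers, 2, 1, 1 and 1 of 5 inhibitory markers and 2, 1, 1 and 3 of 4 progenitor markers had one. For the oligodendrocyte lineage the counts were 1, 2, 1 and 2 of 5 markers, and for endothelial cells 2, 2, 1 and 1 of 4. For astrocytes they were 0, 0, 0 and 3 of 4 markers, and for microglia 0 of 4 in each list. The part of other cell types in the WT-shared regions was not tested. Smarca4 carried a gene-end peak in all 4 lists, with folds of 5.62 in cKO KCl, 5.21 in cKO basal, 5.32 in WT KCl and 4.89 in WT basal. Whether the deletion removes that site is not given in the labels, so the peak is no check of genotype.

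The promoters under the highest-ranked WT-shared regions are shown to let a reader see what kind of sequence these regions cover. Rank is by the authors' fold over local background, taken as a percentile within each WT list, and the lower of the 2 percentiles sorts the regions. The 300-base windows run from 250 bases before to 50 bases after the annotated start, 5′ to 3′ on the strand of the gene, and come from RefSeq on GRCm38.p6. Capitals mark matches, on either strand, to the GC box, ETS, AP-1, CCAAT box and NRF1 motifs. The letters searched are given where each motif is described below, except for NRF1, SRF and MEF2, which are given by name, and matches to the E-box, which most windows hold, are not marked.
Srsf5 (chr12:80945249-80945548, plus strand): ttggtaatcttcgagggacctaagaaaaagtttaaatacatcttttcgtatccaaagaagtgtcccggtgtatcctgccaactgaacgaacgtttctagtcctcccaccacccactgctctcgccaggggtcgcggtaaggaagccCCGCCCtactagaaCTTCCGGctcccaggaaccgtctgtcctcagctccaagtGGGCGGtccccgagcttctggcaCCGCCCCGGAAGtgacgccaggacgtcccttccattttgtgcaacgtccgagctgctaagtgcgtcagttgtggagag
Ino80dos (chr1:63114490-63114789, plus strand): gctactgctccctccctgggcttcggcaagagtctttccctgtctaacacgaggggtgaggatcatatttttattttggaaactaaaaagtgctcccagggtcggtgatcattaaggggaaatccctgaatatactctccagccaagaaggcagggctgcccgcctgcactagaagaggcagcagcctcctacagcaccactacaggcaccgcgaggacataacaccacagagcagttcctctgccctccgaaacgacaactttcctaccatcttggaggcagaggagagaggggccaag
Tesmin (chr19:3389128-3389427, plus strand): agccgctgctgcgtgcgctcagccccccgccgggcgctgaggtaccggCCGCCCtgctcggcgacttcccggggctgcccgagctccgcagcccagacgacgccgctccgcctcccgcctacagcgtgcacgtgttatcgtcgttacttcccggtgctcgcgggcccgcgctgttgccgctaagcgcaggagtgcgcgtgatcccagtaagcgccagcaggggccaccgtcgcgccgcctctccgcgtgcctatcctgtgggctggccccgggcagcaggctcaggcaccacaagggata
Fas (chr19:34290409-34290708, plus strand): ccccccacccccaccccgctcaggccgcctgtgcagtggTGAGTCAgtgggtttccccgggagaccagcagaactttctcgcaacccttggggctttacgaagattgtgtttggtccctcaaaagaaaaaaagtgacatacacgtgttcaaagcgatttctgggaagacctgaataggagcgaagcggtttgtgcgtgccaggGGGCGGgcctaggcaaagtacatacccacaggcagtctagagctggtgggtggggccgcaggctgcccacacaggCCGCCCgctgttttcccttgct
Nfyc (chr4:120815664-120815963, minus strand): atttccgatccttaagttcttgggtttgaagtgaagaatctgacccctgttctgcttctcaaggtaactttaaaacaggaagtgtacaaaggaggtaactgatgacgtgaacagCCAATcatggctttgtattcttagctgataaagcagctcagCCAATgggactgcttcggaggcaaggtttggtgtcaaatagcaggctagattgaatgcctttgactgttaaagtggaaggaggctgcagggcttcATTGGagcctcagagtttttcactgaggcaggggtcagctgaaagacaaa
Egf (chr3:129725037-129725336, minus strand): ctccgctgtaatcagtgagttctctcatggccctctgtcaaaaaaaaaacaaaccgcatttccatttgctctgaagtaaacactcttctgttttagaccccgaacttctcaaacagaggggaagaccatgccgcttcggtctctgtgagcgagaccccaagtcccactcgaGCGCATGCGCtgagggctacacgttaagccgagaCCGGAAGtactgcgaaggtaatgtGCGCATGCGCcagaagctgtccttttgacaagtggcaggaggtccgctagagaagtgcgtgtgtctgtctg

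Srsf5 encodes an SR protein that guides splice-site choice, and its window held 3 GC boxes (GGGCGG or its reverse complement) and 2 ETS matches. The GC box and the ETS match nearest to the start share a base. Ino80dos is a noncoding gene beside Ino80d, which encodes a subunit of the INO80 chromatin remodelling complex, and its window held no match to the 5 marked motifs. The Tesmin window had 39 CpG dinucleotides, against 3 in the Nfyc window. Fas encodes a death receptor, and its window held an AP-1 match whose first base lay 211 bases before the start. Nfyc encodes a subunit of NF-Y, the factor that binds CCAAT boxes, and its window held 3 of them, the last beginning at the annotated start itself. Egf encodes epidermal growth factor, and for Egf as for Nfyc the start lies inside the annotated gene. The Egf window held 2 NRF1 matches, and both summits of the WT-shared region lay 316 bases before that start, outside the window printed. A match describes letters and does not show binding.

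WT-shared regions were a minor part of what the WT neurons had open. Of the 9951 regions with a peak in both WT lists, 11.4% had none in either cKO list, while 1777 had a peak in exactly 1 cKO list and 7043 in both. Peaks of WT-shared regions made up 5.72% of the WT KCl list and 3.41% of the WT basal list. The opposite pattern, a peak in both cKO lists and in neither WT list, was found for 776 regions. Both KCl lists alone shared 814 regions and both basal lists alone shared 1183. The pair that crosses genotype and treatment and joins the longest lists, WT basal with cKO KCl, shared 2301 regions, and the other crossed pair, WT KCl with cKO basal, shared 424.

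The count of WT-shared regions above that of regions shared by the cKO lists depended on the length of the lists. With the 15000 peaks of highest significance from each list, 499 regions were WT-shared and 586 were shared by both cKO lists alone. Of the 1131 WT-shared regions, 312 (27.59%) kept their pattern at that length. With a −log10 q of at least 3 in every list, 834 regions were WT-shared and 618 were shared by both cKO lists alone.

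**Figure D1:**
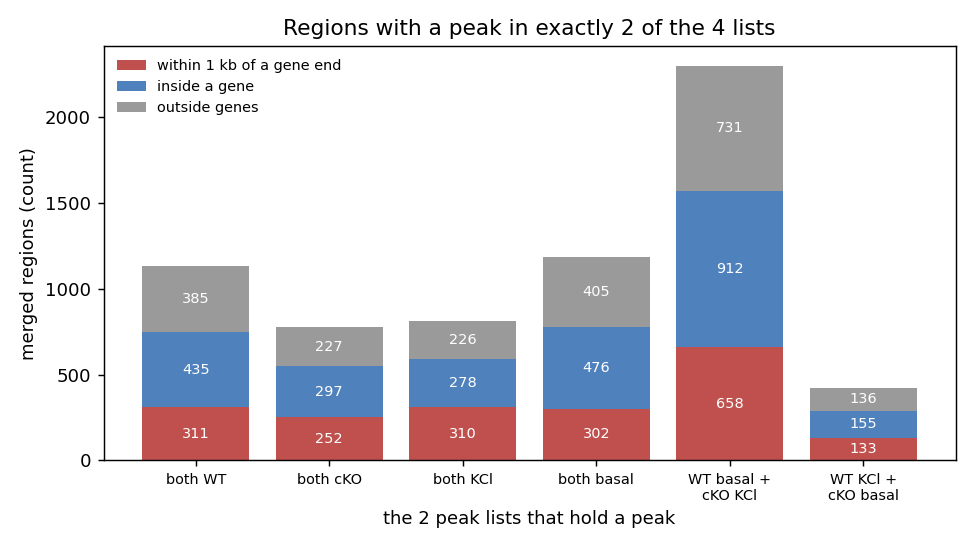
Number of merged regions (y axis) with a peak in exactly 2 of the 4 lists, for each of the 6 pairs of lists (x axis), with bar segments for regions within 1 kb of a gene end, inside a gene and outside genes. The 1131 regions of both WT lists lie between the 2301 of WT basal with cKO KCl and the 424 of WT KCl with cKO basal.

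The WT-shared regions were narrow and of moderate height, as were regions of the other pairs of lists. Their median width was 375 bp, with a range of 200 to 1067 bp. The fold over background ranged from 1.86 to 4.84 in WT KCl with a median of 2.90, and from 1.76 to 4.86 in WT basal with a median of 2.78. The median region stood at percentile 39.0 among all WT KCl peaks by fold and at percentile 44.6 among all WT basal peaks. In WT KCl, 5 WT-shared regions were among the top 10% of peaks, in WT basal 4 were, and 0 were in both. For the other 5 pairs of lists the median widths ran from 357 to 370 bp and the median folds from 2.71 to 2.99. In contrast, regions with a peak in all 4 lists had median folds of 4.14 in cKO KCl, 3.53 in cKO basal, 3.65 in WT KCl and 3.98 in WT basal, and a median width of 678 bp.

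**Figure D2:**
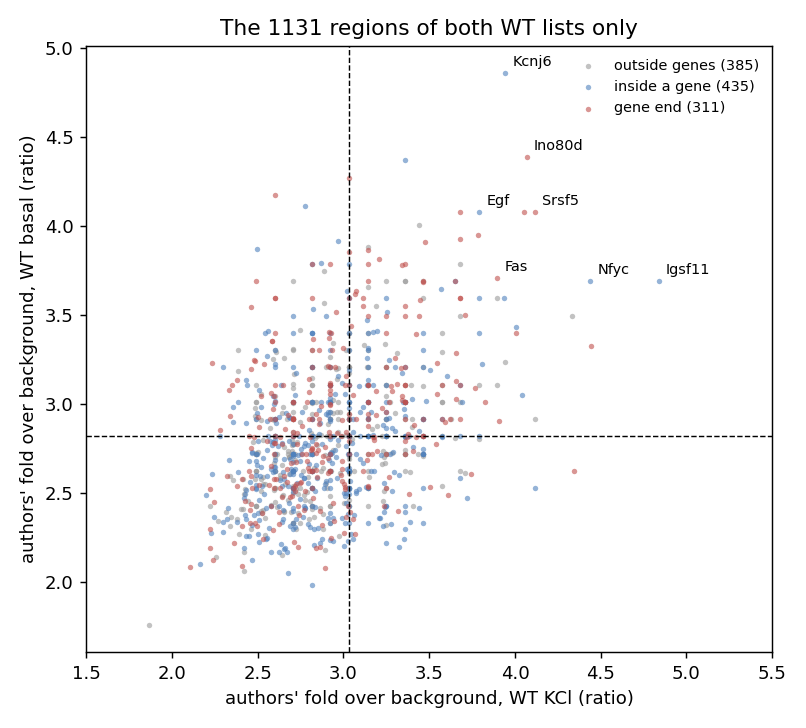
The authors' fold over local background of the 1131 WT-shared regions in WT KCl (x axis, ratio) against WT basal (y axis, ratio), a point per region coloured by position, with dashed lines at the median fold of each whole list (3.03 and 2.82). Below both medians lie 451 regions and above both 268, and Kcnj6, Igsf11, Nfyc, Ino80d, Srsf5, Egf and Fas stand at the high end.

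Each region rested on few fragments. The summit pileup, recovered from the fold and the p-value, had a median of 28 fragments in WT KCl (quartiles 26 and 31) and 31 in WT basal (quartiles 28 and 35). A position at background needed 20 fragments for a call in cKO KCl and 22 in cKO basal. How many fragments the cKO libraries had at the WT-shared regions is not in the peak lists, so a pileup just below those values and no opening at all look alike. The pileups of the 2 WT lists differed by 5 fragments or less in 799 regions. WT basal had the higher pileup in 782 regions and WT KCl in 255. These pileups were not adjusted for depth, and the background per position was 9.30 in WT basal and 8.23 in WT KCl. The median fold, which is taken over background, was 2.78 in WT basal and 2.90 in WT KCl. The folds in the 2 WT lists had a Spearman rho of 0.345 over the 1131 regions, against 0.674 over the 7043 regions of all 4 lists, both as a description of regions that share the same libraries. Few WT-shared regions had high folds, and a limited range of folds can itself lower rho. These 2 values thus do not compare how well the lists agree.

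**Figure D3:**
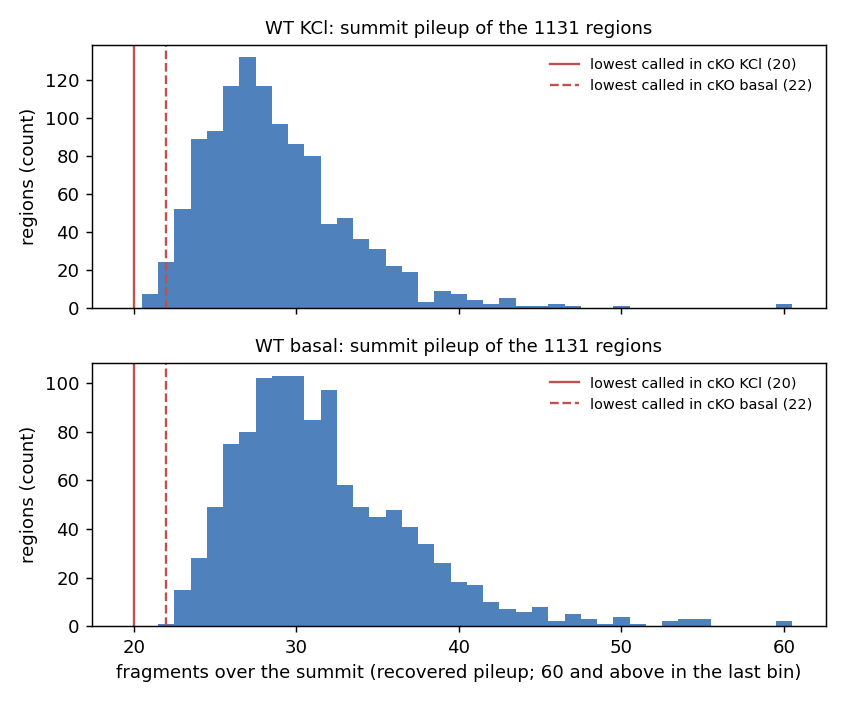
Number of WT-shared regions (y axis) by fragments over the summit (x axis) in WT KCl (upper panel) and WT basal (lower panel), with lines at the lowest pileup called at background in cKO KCl (20, solid) and cKO basal (22, dashed). Most regions lie within about 10 fragments of these lines in WT KCl, where the upper quartile is 31.

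The regions nearest to the threshold show how thin the margin can be. An intragenic region of Tsc22d1, a leucine-zipper gene, had the lowest −log10 q in WT KCl, 1.62 with 21 fragments, and 3.82 with 28 fragments in WT basal. An intragenic region of Magi1, a scaffold gene of cell junctions, had the lowest in WT basal, 1.70 with 22 fragments, and 3.56 with 27 fragments in WT KCl. Just outside the rule lay regions with a peak in both WT lists and a faint peak in 1 cKO list. An intragenic region of Abhd12, a lysophosphatidylserine lipase gene, had a −log10 q of 1.66 with 21 fragments in cKO KCl, 5.06 with 29 fragments in WT KCl and 5.21 with 31 fragments in WT basal. A region near Bhlhe40, a clock-related repressor gene, had 23 fragments in cKO basal, 34 in WT KCl and 33 in WT basal. Over all 1777 regions with exactly 1 cKO peak, the median pileup was 33 in that cKO list, 31 in WT KCl and 35 in WT basal.

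Positions of the WT-shared regions were spread over gene ends, gene bodies and the space between genes. Regions up to 1 kb from the start or end coordinate of a protein-coding gene were counted as gene ends, and exons, introns and UTRs were not analysed here. Of the WT-shared regions, 311 lay at gene ends (27.5%, exact 95% interval 24.9 to 30.2), 435 in gene bodies (38.5%, 35.6 to 41.4) and 385 outside genes (34.0%, 31.3 to 36.9). These intervals, like those below, cover counting error only. At gene ends lay 32.5% of regions of both cKO lists alone (29.2 to 35.9), 38.1% of both KCl lists alone (34.7 to 41.5) and 25.5% of both basal lists alone (23.1 to 28.1). The gene-end share was 75.8% for regions in all 4 lists and 22.6% for all merged regions. Regions found in WT KCl alone had 10.6% at gene ends and those in WT basal alone had 9.83%. With lists of 15000 peaks the gene-end share of the WT-shared regions was 44.1%.

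Inside genes, the WT-shared regions lay in genes of median length 97.0 kb, and 65 of the 435 (14.9%) lay in genes over 300 kb. Those outside genes were a median of 30.3 kb from the nearest one, and 91 of the 385 (23.6%) were more than 100 kb away. The median distance from a WT-shared region to the nearest other one was 482 kb, and 115 of them (10.2%) had another within 50 kb. Chromosomes contributed between 1.41% of their merged regions on chromosome 18 and 2.55% on chromosome 15, against the 1.87% of the whole.

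At gene ends, the strongest WT-shared region lay at Srsf5 (chr12:80945334-80945619). Its fold was 4.11 in WT KCl, from 37 fragments, and 4.08 in WT basal, from 41 fragments. The summits of the 2 lists lay 8 bp apart, and the nearest cKO peak, part of a region open in all 4 lists, was 257 bp away. Next came the region beside Ino80d (chr1:63114584-63114864), with folds of 4.07 in WT KCl and 4.39 in WT basal and summits 8 bp apart. The nearest cKO peak to the Ino80d region was 413 bp away. Tesmin, a gene expressed mainly in testis, had folds of 4.05 in WT KCl and 4.08 in WT basal over the widest of these regions, 852 bp (chr19:3388682-3389533). At the start of Fas (chr19:34290501-34290837) the folds were 3.90 in WT KCl and 3.71 in WT basal, from 35 and 38 fragments. The nearest cKO peak to the Fas region was 44.1 kb away. The other 6 of the 10 highest-ranked gene ends were Zfp84, a zinc-finger gene, Soga3, Thnsl1, a threonine synthase-like gene, Plekhb2, 1810024B03Rik and Ppp2r3d, a gene for a regulatory subunit of protein phosphatase 2A. Their folds ran from 3.68 to 3.78 in WT KCl and from 3.50 to 4.08 in WT basal. The nearest cKO peak was 223 bp away at Soga3 and between 6.66 kb and 63.1 kb away at the others of these 6. In all 10 the summits of the 2 WT lists lay within 50 bp of each other.

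In gene bodies, the leading region lay in Kcnj6 (chr16:94812643-94812981), which encodes the inward-rectifying potassium channel GIRK2. It had a fold of 3.94 from 37 fragments in WT KCl and of 4.86 from 54 fragments in WT basal. The 2 summits lay 4 bp apart, and no cKO peak lay within 71.4 kb. A region in Igsf11 (chr16:38955421-38955748), the gene of a synaptic adhesion molecule, had a fold of 4.84 from 44 fragments in WT KCl and of 3.69 from 37 fragments in WT basal. Kcnj6 was thus higher in WT basal and Igsf11 higher in WT KCl, with no replicate error to set the differences against. Nfyc had folds of 4.44 in WT KCl and 3.69 in WT basal, and Egf 3.79 in WT KCl and 4.08 in WT basal. The region in Cdh18, a cadherin gene, had a fold of 3.79 in WT KCl and 3.59 in WT basal, and lay 128.1 kb from the nearest cKO peak. Atrnl1, Rreb1, a zinc-finger factor gene, Lima1, an actin-binding protein gene, Gm42346 and Aplp2, a relative of the amyloid precursor gene, completed the 10. Among those 10, the summits lay within 50 bp in 6.

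Outside genes, the genes nearest to the 8 highest-ranked regions included Morn3, Ehbp1, Igfbp7, Grik2, Sri, Lnx1 and Matr3. Being nearest does not show that a gene is controlled from the region. A region 283.8 kb from Grik2 (chr10:48809602-48809906), a kainate receptor gene, had folds of 3.57 in WT KCl and 3.40 in WT basal. No cKO peak lay within 972.9 kb of it. The region near Sri, the gene of the calcium-binding protein sorcin, had folds of 3.47 in WT KCl and 3.69 in WT basal with summits 2 bp apart. In 5 of these 8 regions the summits lay within 50 bp.

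How close the summits of the 2 WT lists lay is given as a description. The rule did not use the summits, but the overlap it required limits how far apart they can lie. The median overlap of the 2 WT peaks was 86.3% of the shorter peak. The share of close summits expected from overlap alone was not computed. The median distance between the 2 summits of a WT-shared region was 86 bp, and in 372 regions (32.9%, 30.2 to 35.7) it was at most 50 bp. The share was 36.6% (33.2 to 40.1) for both cKO lists alone, 37.8% (34.5 to 41.3) for both KCl lists alone, and 33.4% (30.7 to 36.2) for both basal lists alone. It was 41.9% (39.8 to 43.9) for WT basal with cKO KCl and 33.0% (28.6 to 37.7) for WT KCl with cKO basal. The crossed pair of the longest lists thus had the highest share of the 6 pairs. The differences between pairs were not tested. Among WT-shared regions, close summits were found in 38.6% at gene ends (33.1 to 44.2), 27.8% in gene bodies (23.7 to 32.3) and 34.0% outside genes (29.3 to 39.0). When the regions were ranked by fold and cut into 4 bins of equal size, the share was 43.5% in the highest bin, 33.9% and 27.6% in the middle ones and 26.6% in the lowest. Of the 28 highest-ranked regions named above, 21 had summits within 50 bp.

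**Figure D4:**
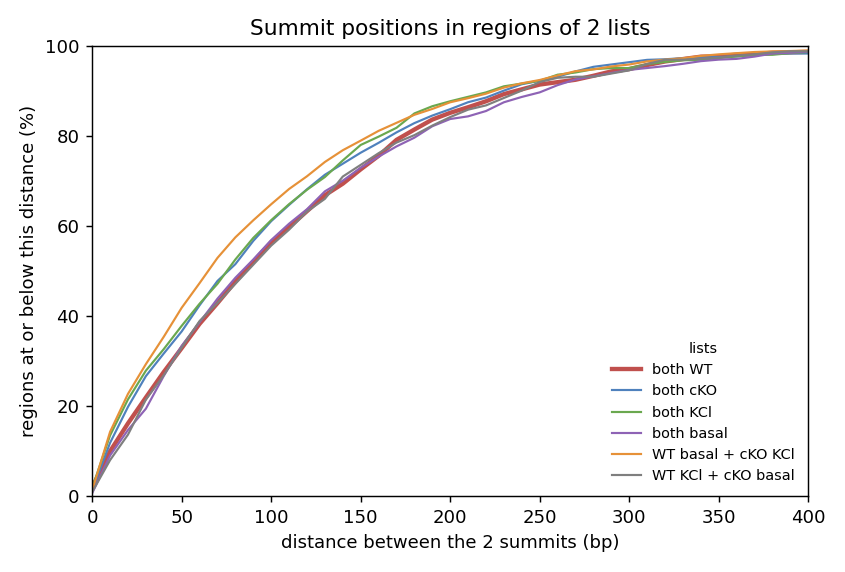
Cumulative share of regions (y axis, %) by distance between the summits of the 2 lists that hold them (x axis, bp), a line per pair of lists. The thick line of the WT-shared regions runs with those of both basal lists and of WT KCl with cKO basal, with 32.9% within 50 bp for the WT-shared regions against 41.9% for WT basal with cKO KCl, the highest line.

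Some WT-shared regions had cKO peaks close by that did not overlap them. A cKO peak lay within 1 kb of 210 regions (18.6%, 16.3 to 21.0), and in 49 of these it belonged to a region open in all 4 lists. The median distance to the nearest cKO peak was 11.0 kb. For regions of both cKO lists alone, 24.5% (21.5 to 27.7) had a WT peak within 1 kb. Among WT-shared regions the share was 30.9% at gene ends (25.8 to 36.3), 15.6% in gene bodies (12.3 to 19.4) and 11.9% outside genes (8.88 to 15.6). At the far end, 21 regions at gene ends, 45 in gene bodies and 76 outside genes had no cKO peak within 50 kb. Examples were the regions at Rims1 and at the Tenm2 gene end, with the nearest cKO peak 42 bp and 60 bp away. Both of these cKO peaks belonged to regions open in all 4 lists. Such a WT-shared region adjoins an open site of cKO neurons rather than standing alone.

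Promoter windows were covered by 191 of the 1102 WT-shared regions outside chromosome 18 (17.3%, 15.1 to 19.7). Chromosome 18 was not used here for sequence. The share was 19.9% (17.1 to 23.0) for both cKO lists alone, 26.1% (23.1 to 29.3) for both KCl lists alone and 13.1% (11.2 to 15.2) for both basal lists alone, and 70.0% for regions in all 4 lists. Of the 305 gene-end regions there, 204 (66.9%) lay within 1 kb of an annotated start, and 101 lay at gene ends without one. Of all 1102 regions, 271 (24.6%) lay within 1 kb of a start, among them 47 in gene bodies and 20 outside genes. The starts include those of noncoding genes, while the position classes use protein-coding genes alone. Within the 191 regions, the WT KCl summit was within 100 bp of the nearest start in 119 (62.3%) and the WT basal summit in 108 (56.5%). In 20 the region covered windows of 2 or more genes. High-ranked examples, picked after their values were seen, were the divergent pairs Thnsl1 and Enkur, Snrnp200 and 1810024B03Rik, and Eif2b1 and Gtf2h3, which encode a translation initiation factor subunit and a subunit of the transcription factor TFIIH.

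The promoters under WT-shared regions were rich in CpG, though less so than promoters open in every condition. Their 231 windows, of 211 genes, had a median GC content of 60.3% and a median of 21 CpG dinucleotides (quartiles 13 and 28). Windows under regions of all 4 lists had a median of 65.0% GC and 26 CpG, and windows under no region had 48.3% GC and 4 CpG. Regions of both cKO lists alone covered windows with a median of 62.0% GC and 22 CpG. The GC box, bound by Sp family factors, was found in 64.1% of windows under WT-shared regions (57.5 to 70.3) and in 36.0% of all 31396 windows, of which 19856 lay under no region. For the other pairs of lists the GC box share ran from 58.4% to 66.7%, and under regions of all 4 lists it was 76.0%. ETS matches (CCGGAAG) were found in 38 of the 231 windows (95% interval of the share 11.9 to 21.9%) against 9.00% of all windows, and NRF1 matches in 9.52% (6.07 to 14.1) against 4.68%. For the other pairs of lists, ETS ran from 13.7% to 19.2% and NRF1 from 6.04% to 13.2%. Under regions of all 4 lists ETS was found in 20.5% and NRF1 in 12.1%. YY1 matches (AAGATGGCG) were found in 10 of the 231 windows, 4.33% (2.10 to 7.82), against 1.39% of all windows. The YY1 share ran from 1.15% to 3.85% for the other pairs of lists and was 3.49% under regions of all 4 lists.

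Motifs of factors that respond to neuronal activity differed in how often promoter windows held them. The cyclic AMP response element (CRE, TGACGTCA), bound by CREB, was found in 8 of 231 windows, 3.46% (1.51 to 6.71), against 1.83% of all windows and 3.87% under regions of all 4 lists. AP-1 (TGANTCA) was found in 3.90% (1.80 to 7.27) against 7.84% of all windows and 3.04% under regions of all 4 lists. EGR (GCGNGGGCG) was found in 6.93% (4.01 to 11.0) against 5.63% of all windows. Under regions of all 4 lists the EGR share was 13.5% (12.6 to 14.3), and for the other pairs of lists it ran from 8.65% to 13.8%. These differences were not tested. The SRF motif was found in 2 windows and the MEF2 motif in 1. For CCAAT boxes, searched by those letters, the share was 33.8% (27.7 to 40.3) against 37.3% of all windows, and for E-boxes (CANNTG) 66.7% (60.2 to 72.7) against 72.2%. Under regions of all 4 lists, CCAAT boxes were found in 43.0% of windows and E-boxes in 56.3%. TATA boxes (TATAAA) were found in 9.09% (5.72 to 13.6) against 13.6% of all windows and 3.88% under regions of all 4 lists. Windows differ in base composition, GC box, EGR and ETS matches can share bases, and some genes have several overlapping windows, so these shares are not independent of each other. No sequence was used for the regions away from promoters.

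**Figure D5:**
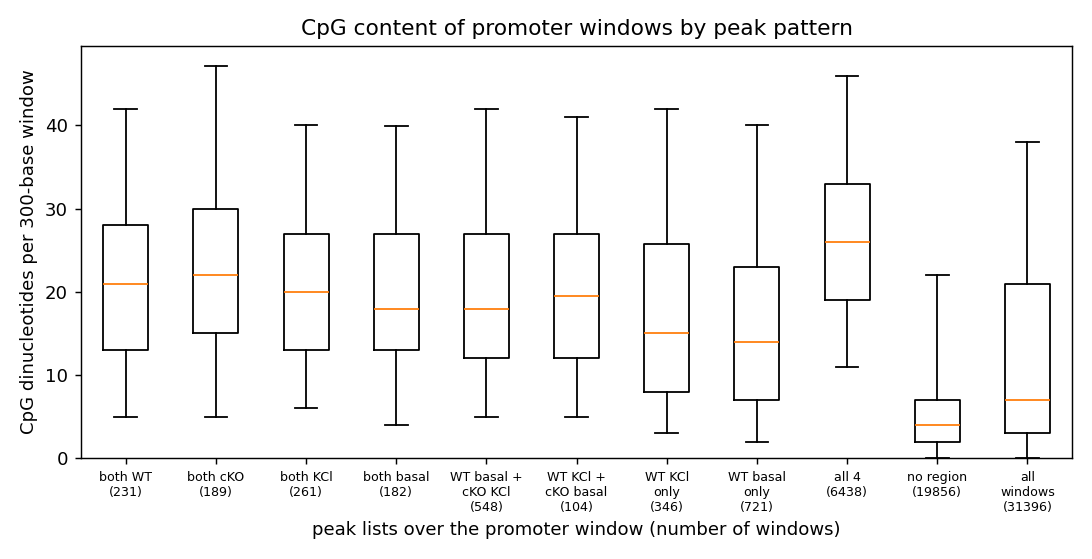
CpG dinucleotides per 300-base promoter window (y axis) by the peak lists of the region over it (x axis, with the number of windows), with lines at the median, boxes for the quartiles and whiskers for the 5th and 95th percentiles. The windows under WT-shared regions have a median of 21, against 26 under regions of all 4 lists and 4 under none.

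Genes of 13 lists chosen for cortical neurons and their response to depolarisation were looked up among the WT-shared regions. Of the 274 listed genes, which include many long ones, 23 (8.39%) had such a region at an end or in the body, against 762 (3.69%) of all 20665 protein-coding genes on chromosomes 1 to 19. Within 50 kb of the gene body, 47 listed genes (17.2%) had one, against 2307 (11.2%) of all genes. These were 51 regions, while lists of 15000 peaks gave 28 and a window of 10 kb gave 32. The median listed gene had 0, as did the median of all genes. Because long genes hold more regions of every kind, each list is also given as the share of its merged regions within 50 kb that were WT-shared, beside the 1.87% of all regions.

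At genes that respond to neuronal activity the share of WT-shared regions was near that of all regions. None of the 20 rapid response genes had one at an end or in the body, and 3 had one within 50 kb, which is 1.83% of the 164 regions there, against the 1.87% of all regions. These lay 9.35 kb from Fosb, 2.00 kb from Egr3 and 3.20 kb from Ccn1. The Egr3 region was faint, with folds of 2.42 in WT KCl and 2.06 in WT basal and a cKO KCl peak 269 bp away. Among 20 delayed response genes only Sik1, a salt-inducible kinase that restrains CREB coactivators, had one, 1 of the 83 regions there. The Sik1 gene-end region (chr17:31855740-31856106) had a fold of 2.95 from 39 fragments in WT KCl and of 3.52 from 54 fragments in WT basal, with summits 1 bp apart and no cKO peak within 25.6 kb.

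Among the 28 genes for BAF subunits, 3 had a WT-shared region at an end or in the body, and 7 of the 309 regions within 50 kb (2.27%) were WT-shared. Smarca2 encodes BRM, the alternative ATPase of the complex, and carried an intragenic region (chr19:26747574-26748024) with folds of 3.20 in WT KCl and 3.41 in WT basal. Arid2, a subunit of the related PBAF complex, carried an intragenic region with folds of 2.60 in WT KCl and 3.21 in WT basal, and a cKO basal peak lay 212 bp away. Bcl11b, a zinc-finger factor of deep-layer cortical neurons that also joins BAF complexes, had a gene-end region with folds of 2.58 in WT KCl and 3.06 in WT basal. A cKO KCl peak lay 905 bp from the Bcl11b region. The other 4 regions lay outside the bodies of Smarcc1, Smarcd3, Dpf2 and Dpf3. Smarca4 itself had no WT-shared region.

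Among 25 genes for cortical transcription factors, Bcl11b, Neurog2 and Nfia had a WT-shared region at an end or in the body, and 4 of 281 regions within 50 kb (1.42%) were WT-shared. Neurog2, a proneural factor gene, had folds of 2.58 in WT KCl and 3.35 in WT basal at its gene end. Nfia, of the nuclear factor I family, had an intragenic region with folds of 3.48 in WT KCl and 3.02 in WT basal. Both had cKO peaks close by, 193 bp away at Neurog2 and 199 bp away at Nfia, and the Bcl11b region had one 905 bp away. Of the 16 inhibitory neuron genes, Erbb4, the neuregulin receptor gene, had a gene-end region with folds of 3.14 in WT KCl and 2.94 in WT basal. A region of both KCl lists alone lay 806 bp from it. Within 50 kb of these genes 3 of 81 regions (3.70%) were WT-shared, another of them near Pvalb.

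Among 28 synapse genes, 4 had a WT-shared region at an end or in the body, Shank3, Nlgn1 and Rims1 among them, and 6 of 285 regions within 50 kb (2.11%) were WT-shared. Nlgn1, a postsynaptic adhesion gene, had folds of 2.92 in WT KCl and 3.21 in WT basal at its gene end. Rims1, which organises the presynaptic active zone, had 2.38 in WT KCl and 3.14 in WT basal. The Shank3 region, in the gene of a postsynaptic scaffold, had 2.81 in WT KCl and 1.98 in WT basal and was second to last in rank among all 1131.

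Ion channel genes held 7 WT-shared regions in 6 genes. Besides Kcnj6, the potassium channel genes Kcna1 and Kcnd2 had them, and 4 of 211 regions within 50 kb of the 24 listed genes (1.90%) were WT-shared. Kcna1, of the delayed rectifier Kv1.1, had 2 at its gene end, with folds of 2.85 and 2.54 in WT KCl and 2.74 and 3.23 in WT basal. Kcnd2, of the A-type channel Kv4.2, had an intragenic region with folds of 3.47 in WT KCl and 2.91 in WT basal and no cKO peak within 77.8 kb. Among 18 voltage-gated calcium and sodium channel genes, Cacna1a, Cacnb4 and Scn8a had an intragenic region each, and 3 of 188 regions (1.60%) were WT-shared. Scn8a, of the sodium channel Nav1.6, had folds of 3.03 in WT KCl and 3.79 in WT basal. Cacna1a, of the P/Q-type calcium channel, was lower, with 2.50 in WT KCl and 2.27 in WT basal.

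Among 28 axon guidance and adhesion genes, Nrp1, Igsf11 and Cntn4 had a WT-shared region at an end or in the body, and 4 of 280 regions (1.43%) were WT-shared. Nrp1, a semaphorin receptor gene, had folds of 3.01 in WT KCl and 3.16 in WT basal at a gene end, with summits at the same base. A region of both cKO lists alone lay 915 bp from it. These 2 neighbouring sites were thus each called in the lists of 1 genotype only. Signal below the threshold in the lists of the other genotype is not known. Cntn4, a contactin gene, had folds of 3.47 in WT KCl and 2.91 in WT basal with summits 326 bp apart, and no cKO peak lay within 539.98 kb. Of 16 progenitor and Notch pathway genes, Notch2 had an intragenic region with folds of 2.80 in WT KCl and 2.30 in WT basal, and 3 of 119 regions (2.52%) were WT-shared.

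Lists that do not mark neurons gave the following counts. None of the 20 glial and vascular genes and none of the 20 developmental genes silent in cortex had a WT-shared region at an end or in the body. Within 50 kb, 4 of 177 regions (2.26%) and 2 of 124 regions (1.61%) were WT-shared. The latter 2 lay in the body of Hoxc4 and at a gene end of Hoxd1, Hox genes that were not on the list. Of the 14 housekeeping genes on chromosomes 1 to 19, 2 had one at a gene end, Tubb5 among them. Within 50 kb of the housekeeping genes 8 of 131 regions (6.11%) were WT-shared, the highest share of the 13 lists, and the difference from the 1.87% of all regions was not tested. Most of these lay at other genes, such as a region at the end of H2-K1, a class I histocompatibility gene, 44.2 kb from Rps18. Tubb5, a beta-tubulin gene, had folds of 3.66 in WT KCl and 3.03 in WT basal from 47 and 43 fragments.

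WT-shared regions rarely clustered at a gene, and 6 genes had 3 of them in the body or within 50 kb. At Spry1, an inhibitor of growth factor signalling, 2 lay at the gene itself, and each had a cKO peak beside it, 53 bp and 38 bp away. Tenm2, a teneurin adhesion gene of axons and synapses, had 1 at its gene end, with folds of 2.82 in WT KCl and 3.79 in WT basal, and 1 in its body. The 3 of Chil4, Calu and Mto1 all lay outside those genes. The closest pair of WT-shared regions was 163 bp apart, and 16 regions had another within 5 kb.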

How the data were processed

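Nucleosome-free ATAC-seq peaks of 8 libraries in 4 conditions were taken from 4 deposited narrowPeak lists, 1 per condition, whose names give genotype and treatment. Per the submitters' processing notes, Bowtie2 and MACS2 were used with the builds GRCm38 and mm10, names of the same assembly. The sources used here do not give versions, duplicate removal, the Tn5 shift, the fragment lengths kept or how libraries were combined, and each could move a peak across the threshold. The labels give 60 M reads of 75 bp per library, and the reads behind each list are unknown.

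By the column order of that layout, the authors deposited for each peak a score, a fold over local background (a ratio), −log10 p-values and q-values, and the summit position. These values are the authors' and were used only to describe, rank or filter peaks. The pileup was solved from the fold, with its pseudocount of 1, and the Poisson p-value, and a whole number was found for 100% of peaks within 0.002 in −log10 p.

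Peaks on chromosomes 1 to 19 were merged at 1 bp of overlap and annotated with the RefSeq gene table of GRCm38.p6, whose gene positions carry no strand. Promoter windows came from RefSeq on the same build. Merging and pileup recovery were tested on simulated data. Shares carry exact 95% Clopper-Pearson intervals. With 1 list per condition no test between conditions was made. The named regions were the 10 highest-ranked at gene ends, the 10 in gene bodies and the 8 outside genes, all listed genes with a region at an end or in the body, all genes with 3 regions, and the regions nearest to the threshold, except some that are not reported here. The members and lists were chosen with earlier results of these data known. Python 3.11.15, pandas 2.3.3, NumPy 2.4.6, SciPy 1.17.1 and matplotlib 3.10.9 were used. Alternatives changed the overlap, peak width, threshold, list length, chromosomes and distances.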

Additional observations from a re-analysis of the deposited data

How the results depend on the processing

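Of 64 recomputed values, 35 kept within the main value's interval or within 1.5 times its count and 29 moved. With 15000 peaks from each list, 499 regions were WT-shared, 44.1% at gene ends, 30.5% in gene bodies and 25.5% outside genes, with a median width of 386 bp, 44.9% with summits within 50 bp, and 28 in or within 50 kb of listed genes. With a −log10 q of at least 3 in every list, 33.8% lay at gene ends, 35.4% in gene bodies and 30.8% outside genes, and 37.8% had close summits. With summits widened by 100 bp on each side, the shares were 35.5%, 35.2% and 29.2%, the width 266 bp and the share with close summits 40.7%. With an overlap of at least 50% of the shorter peak, 31.0% lay at gene ends, the width was 360 bp and 37.6% had close summits. With peaks up to 500 bp apart merged, the values were 23.1%, 412 bp and 26.4%. A gene-end limit of 500 bp gave 23.2% and of 2 kb 32.8%, and a summit limit of 100 bp gave 56.4%. A window of 10 kb around listed genes held 32 regions. A cKO peak lay within 500 bp of 15.0%, within 2 kb of 22.6% and within 5 kb of 31.2% of the regions. With lists of 15000 peaks and with widened summits, gene ends held more regions than gene bodies, unlike in the lists as deposited. A −log10 q of at least 2, and adding chromosomes X and Y, moved none of the counts, position shares, widths, shares with close summits and counts at listed genes. The share with a cKO peak nearby was recomputed for other distances alone. No paired analysis was possible because each condition has 1 list without values per library, and leaving out a replicate could not be computed for the same reason. Pileups near 30 fragments limit what absence from a cKO list can show.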

Other observations

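On chromosome X, 24 further regions had a peak in both WT lists and in neither cKO list, and on chromosome Y there were 0. Of the 24, 11 lay at gene ends, 3 in gene bodies and 10 outside genes. A region in Pak3, the gene of a p21-activated kinase that acts on the actin cytoskeleton of dendritic spines, had folds of 3.36 in WT KCl and 3.11 in WT basal. Gene-end regions lay at Stk26, with folds of 3.14 in WT KCl and 3.50 in WT basal, and at Plxna3, a plexin gene of semaphorin signalling, with 3.09 in WT KCl and 3.34 in WT basal. The labels give no sex for the cultures.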
